A study of Mus musculus with 15 samples.

Results

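Considered here are 5 of the 25239 genes in the deposited tables, Cebpa, Cebpb, Cebpd, Cebpg and Cebpz. These were chosen by their symbols, with earlier results of these data known. They were measured by RIP-seq, in which RNA that co-precipitates with a protein is sequenced, in ST2 cells, an established mouse stromal line of bone marrow origin. The antibody was against Arid5a, an RNA-binding protein, or was mouse IgG2b as the control. Cells had been held for 3 h in medium alone or with the cytokine IL-17 at 200 ng/mL, then trypsinized and fixed with 1% formaldehyde before lysis. The 15 libraries fall into 4 groups, namely IgG RIP in medium (n = 4), Arid5a RIP in medium (n = 4), IgG RIP with IL-17 (n = 3, numbered 2 to 4) and Arid5a RIP with IL-17 (n = 4). All groups carry the same cells, fixation and library kit, and no library of unprecipitated RNA was analysed here. A difference between treatments within a RIP is therefore a difference in recovered RNA, in which a changed cellular level and a changed recovery cannot be told apart, and neither can fewer cells and less RNA per cell. Nothing in the labels says that the numbered samples came from separate cultures, so p-values measure the spread between these samples, which may be technical.

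C/EBP proteins are basic leucine zipper factors that bind DNA as dimers with one another or with related zipper proteins, and their family includes activators and shortened or inhibitory forms. C/EBPβ and C/EBPδ are induced by inflammatory cytokines, act with NF-κB and IκBζ on IL-17 target genes, and also start fat-cell differentiation in mesenchymal cells, where C/EBPα acts later with PPARγ. C/EBPγ lacks a classical activation domain and pairs with other family members and with ATF4, whereas the product of Cebpz, named for CCAAT binding, is a nucleolar protein of ribosome biogenesis related to Noc1 of yeast and is no zipper factor.

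Library totals ran from 939139 counts (IgG medium 2) to 5713913, and the Pearson r between replicates of a group, across genes on the log2 scale, was 0.818 to 0.968. All 12 stromal markers passed the filter on low counts, at a summed 25240 to 37421 CPM (read counts relative to the library total after TMM scaling) in a library. Markers of other cells were low, with a summed 10.53 to 33.6 CPM for the 13 haematopoietic, 17.1 to 94.3 for the 10 epithelial or endothelial and 33.9 to 80.9 for the 6 fat-cell markers. Hbb-bs, the adult beta-globin gene, was at 0 in every library. The 1471 olfactory and vomeronasal receptor genes, silent in most cells, made up 1961 to 3035 CPM in IgG medium, 3201 to 4697 in Arid5a medium and 2325 to 3313 in IgG IL-17 libraries. In the Arid5a RIP with IL-17 they made up 1656, 1785, 1389 and 4008 CPM in replicates 1 to 4, so that replicate 4 stood apart.

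The members lie on 4 chromosomes (RefSeq models, GRCm38.p6). Cebpa (gene ID 12606) lies on chromosome 7 at 35119293 to 35121928 and Cebpg (12611) at 35046422 to 35056566 of the same chromosome, 62726 bases apart. Cebpb (12608) lies on chromosome 2 at 167688915 to 167690432, Cebpd (12609) on chromosome 16 at 15887286 to 15889545 and Cebpz (12607) on chromosome 17 at 78919003 to 78937070. All 5 are protein coding. Cebpd overlaps the model of Spidr, a DNA repair scaffold gene, by 322 bases, and Cebpz overlaps Cebpzos by 2046 bases. Cebpg overlaps Gm45095 by 1084 bases. The strand setting of the counting is not given in the sources used here, so reads in these overlaps may be shared between the genes.

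RefSeq's promoter table (GRCm38.p6) held Cebpa, Cebpb and Cebpg but not Cebpd or Cebpz. The 250 bases before each start are shown for these 3 so that the start regions can be set beside the values that follow. Capitals mark matches on either strand. The motifs found were TATAAA for the TATA box, TGACG for the core of the cyclic AMP response element, and CCAAT for the box that NF-Y binds. The windows are chr7:35119043-35119292 on the plus strand for Cebpa, chr2:167688665-167688914 on the plus strand for Cebpb and chr7:35056567-35056816 on the minus strand for Cebpg.
Cebpa: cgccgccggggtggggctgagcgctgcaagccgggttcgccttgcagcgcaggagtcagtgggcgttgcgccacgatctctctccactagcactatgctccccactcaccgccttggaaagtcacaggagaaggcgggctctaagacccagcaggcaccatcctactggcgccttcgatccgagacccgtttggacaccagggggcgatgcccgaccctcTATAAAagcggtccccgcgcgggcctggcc
Cebpb: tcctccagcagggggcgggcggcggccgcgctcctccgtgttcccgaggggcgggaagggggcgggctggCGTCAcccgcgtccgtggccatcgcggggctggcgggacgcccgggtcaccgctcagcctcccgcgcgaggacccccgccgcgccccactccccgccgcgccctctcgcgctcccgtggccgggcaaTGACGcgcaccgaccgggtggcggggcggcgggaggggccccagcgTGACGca
Cebpg: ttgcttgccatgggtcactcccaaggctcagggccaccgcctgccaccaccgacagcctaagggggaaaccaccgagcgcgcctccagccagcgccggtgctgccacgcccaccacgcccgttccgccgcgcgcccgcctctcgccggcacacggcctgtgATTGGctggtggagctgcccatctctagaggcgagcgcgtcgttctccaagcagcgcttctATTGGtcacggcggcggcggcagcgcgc

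The Cebpa window held TATAAA 30 bases before the start, a motif found in 12.4% of 32851 promoter windows of this length. In the Cebpb window TGACG occurred 3 times, at 180 bases (opposite strand), 53 and 7 bases before the start, and 17.8% of all windows held it at least once. The Cebpg window held CCAAT on the opposite strand at 89 and 28 bases before the start, a motif of 33.8% of windows. GC content was 66.4%, 81.6% and 70.8% for Cebpa, Cebpb and Cebpg against a median of 52.4% over all windows. The C/EBP motif TTNNGNAA (36.8% of windows), the NF-κB motif GGGANTTTC (0.941%) and the STAT motif TTCNNNGAA (7.02%) were not among these letters in the 3 windows.

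Cebpb was the most abundant of the 5 transcripts per length in every group. FPKM (fragments scaled to transcript length and library total) compares levels between genes of different length, and over the 15 libraries Cebpb averaged 51.4 ± 13.5 FPKM (SD; 33.3 to 72.5), within the 90.6th to 95.7th percentile of a library's genes. Cebpz averaged 23.03 ± 4.97, Cebpg 15.5 ± 2.0, Cebpd 15.5 ± 9.4 and Cebpa 4.78 ± 1.79 FPKM. Cebpg had the narrowest relative range of these, 11.2 to 19.1 FPKM, while Cebpd ran from 5.58 to 30.6 FPKM and Cebpa from 0.44 to 7.28 FPKM. Cebpb, Cebpg and Cebpz exceeded the 95th percentile of the receptor genes in all 15 libraries and Cebpd in 10. Cebpd did not exceed it in IgG medium 1 (5.67 against 5.76 FPKM) or in any Arid5a medium library (5.58 to 7.84 against 7.84 to 10.98 FPKM). In those libraries its level was within the range of receptor background. Cebpa exceeded the 95th percentile in 3, so that its level was within that range in the other 12.

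The order of the FPKM levels differed between treatments in the place of Cebpd. In medium it was Cebpb, Cebpz, Cebpg, Cebpd and Cebpa in both RIPs, with means of 49.4, 21.6, 15.5, 8.08 and 4.49 FPKM in the IgG RIP and 37.4, 21.7, 15.5, 6.97 and 6.10 FPKM in the Arid5a RIP. The ranges of Cebpd and Cebpa overlapped in both RIPs and those of Cebpz and Cebpg in the IgG RIP. With IL-17 Cebpd stood above Cebpg, at means of 25.3 against 13.6 FPKM in the IgG RIP and 24.2 against 17.04 FPKM in the Arid5a RIP, higher in each of the 7 libraries. Its range then overlapped that of Cebpz (23.4 and 25.6 FPKM), while Cebpb (62.0 and 59.4 FPKM) stayed above and Cebpa (4.41 and 4.02 FPKM) below all others.

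**Figure D1:**
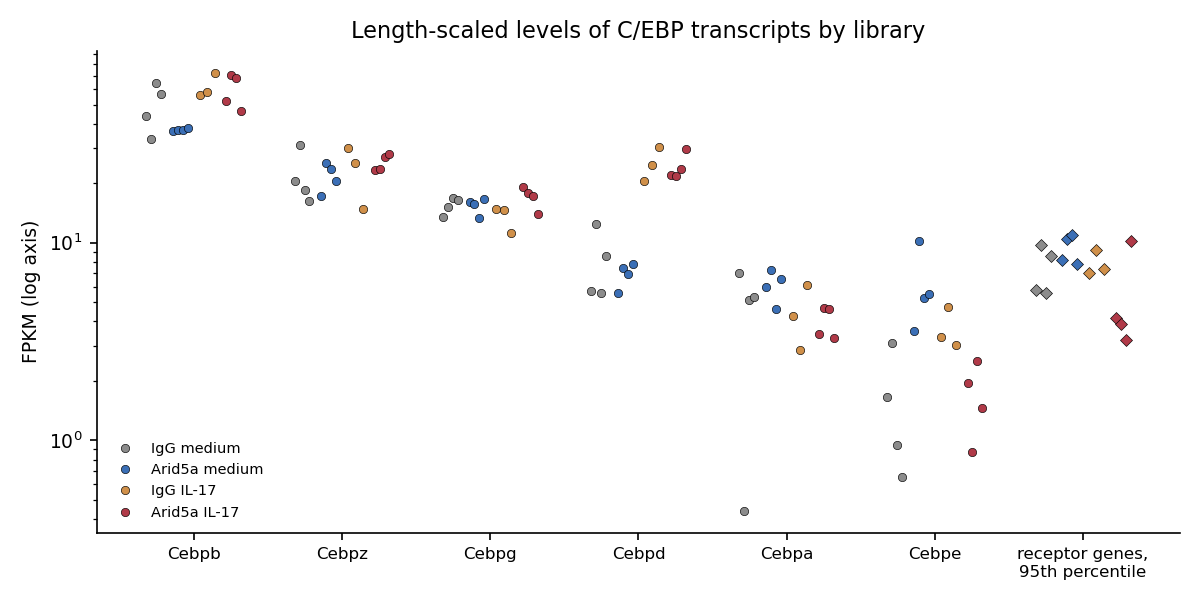
FPKM (log axis) of each member, of Cebpe and of the 95th percentile over receptor genes, 1 point a library, coloured by group. Cebpb lies highest in every group, and Cebpd lies above Cebpg in the IL-17 libraries and below it in the medium libraries. Cebpa, Cebpe and, in medium, Cebpd lie at or near the receptor genes.

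Cebpd rose with IL-17 in both RIPs. In IgG medium replicates 1 to 4 it stood at 11.9, 27.0, 12.6 and 16.97 CPM, and in IgG IL-17 replicates 2 to 4 at 41.3, 48.3 and 67.0 CPM. In Arid5a medium replicates 1 to 4 it stood at 11.1, 13.6, 12.6 and 15.3 CPM, and in Arid5a IL-17 replicates 1 to 4 at 49.1, 47.6, 51.3 and 58.0 CPM. Every IL-17 library thus lay above every medium library of either RIP, and the highest medium value was that of IgG medium 2, which held 24 Cebpd counts in the shallowest library. The rise was 3.90-fold in the Arid5a RIP (95% interval 2.71 to 5.60; log2 fold 1.96 ± 0.26, SE; edgeR adjusted p = 5.18e-06) and 3.24-fold in the IgG RIP (2.20 to 4.79; 1.70 ± 0.28; adjusted p = 0.000589). Averaged over both RIPs it was 3.55-fold (2.73 to 4.64; adjusted p = 2.54e-08). In the Arid5a RIP the medium level from which Cebpd rose was within the range of receptor background, as given above. With a fit on the 7 IgG libraries alone the rise in that RIP was 1.68 on the log2 scale and no longer passed the test (adjusted p = 0.0997). Spidr, which overlaps Cebpd, had log2 folds of 0.30 ± 0.22 and -0.20 ± 0.25 in the Arid5a and IgG RIPs (adjusted p = 0.432 and 0.829).

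Cebpb rose with IL-17 in the Arid5a RIP, with a smaller fold than that of Cebpd. Arid5a medium replicates 1 to 4 held 46.6, 43.8, 43.4 and 47.6 CPM and Arid5a IL-17 replicates 73.0, 95.7, 94.2 and 57.8 CPM. The groups did not overlap, and replicate 4, the library high in receptor genes, was the lowest of the IL-17 group. The log2 fold was 0.82 ± 0.20 (1.77-fold, 95% interval 1.34 to 2.34; adjusted p = 0.0108), and it was 0.94 without that replicate. The call depended on the scaling. The 5394 well-expressed genes (log2 CPM of 5 or more on average) had a median log2 fold of 0.30 in this comparison, and when scaled on these genes Cebpb stood at 0.51 (adjusted p = 0.124). With upper-quartile factors it was 0.61 (0.0818), with library totals 0.57 (0.0953), and on log2(FPKM + 1) and log2(FPKM + 0.1) 0.63 (0.113) and 0.64 (0.147). It also missed the threshold without Arid5a IL-17 replicate 2 (0.73, adjusted p = 0.0787) or 3 (0.73, adjusted p = 0.0609). Of the 12 stromal markers 5 were also higher in this comparison, against 4.84% of all genes, with a median log2 fold of 0.37. With upper-quartile factors, library totals or scaling on well-expressed genes 0 of 12 were called (medians 0.15, 0.11 and 0.05), and their part in the Cebpb value was not tested.

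In the IgG RIP, Cebpb did not pass the test. The medium replicates 1 to 4 held 58.7, 46.0, 92.8 and 70.8 CPM and the IL-17 replicates 2 to 4 held 72.0, 71.4 and 101 CPM, so the groups overlapped. The log2 fold was 0.25 ± 0.21 (1.19-fold, 95% interval 0.881 to 1.61; adjusted p = 0.725). The difference between the RIPs in this response was 0.57 ± 0.29 on the log2 scale (adjusted p = 0.328), which edgeR did not call and limma voom with sample weights did (0.83, adjusted p = 0.033), a fit that called 5.26% of genes higher and 4.6% lower. Averaged over both RIPs Cebpb rose 1.45-fold (1.18 to 1.78; log2 fold 0.54 ± 0.15, adjusted p = 0.032). That call was lost when scaled on well-expressed genes (0.39, adjusted p = 0.117). It was also lost without any 1 of 9 libraries, namely IgG medium 1, Arid5a medium 1, 2, 3 or 4, IgG IL-17 4 and Arid5a IL-17 1, 2 or 3 (0.49 to 0.56, adjusted p = 0.0525 to 0.101).

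**Figure D2:**
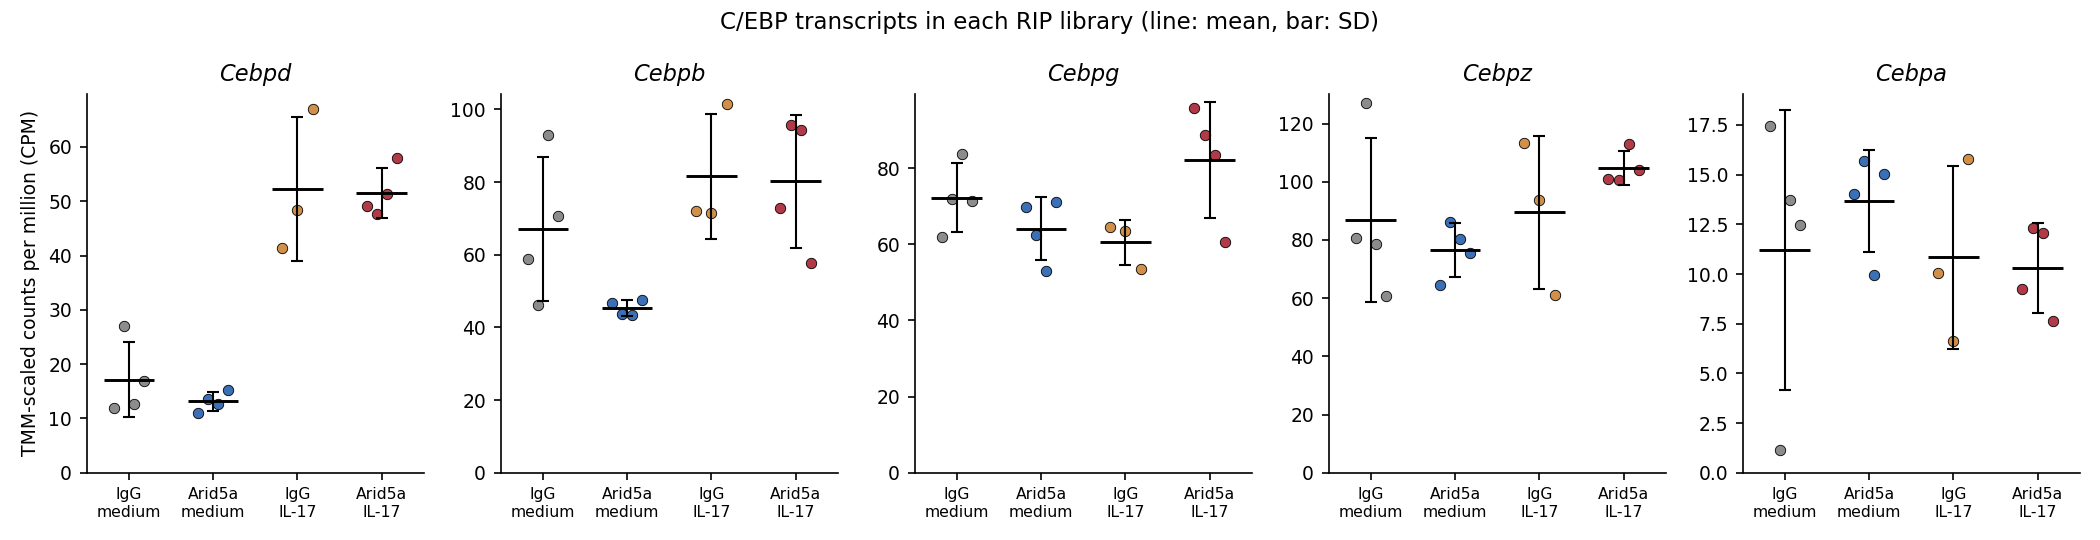
TMM-scaled CPM (linear axes from 0) of the 5 members in the 15 libraries, 1 point a library, with the mean (line) and SD (bar) of each group. Cebpd lies above all medium libraries in every IL-17 library, Cebpb separates only in the Arid5a RIP, and the groups of Cebpa overlap throughout.

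Cebpg did not pass the test in any comparison with edgeR. It stood at 61.8, 71.9, 83.8 and 71.4 CPM in IgG medium, 69.7, 62.4, 53.0 and 71.0 in Arid5a medium, 64.5, 63.4 and 53.6 in IgG IL-17 and 95.8, 88.6, 83.5 and 60.6 in Arid5a IL-17 libraries. Replicates 1 to 3 of the last group were above all medium libraries of the Arid5a RIP and replicate 4 was within their range. The log2 fold with IL-17 was 0.36 ± 0.18 in the Arid5a RIP (adjusted p = 0.219) and -0.25 ± 0.20 in the IgG RIP (adjusted p = 0.692), and the difference between them was 0.61 ± 0.26 (adjusted p = 0.238). Limma voom with sample weights called the change in the Arid5a RIP (0.44, adjusted p = 0.00701), in a fit that called 18.9% of all genes higher and 23.1% lower, whereas scaling on well-expressed genes gave 0.05.

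Cebpz had non-overlapping groups in the Arid5a RIP without passing the test there. The medium libraries held 64.5, 86.3, 80.4 and 75.4 CPM and the IL-17 libraries 101, 101, 113 and 104 CPM, for a log2 fold of 0.45 ± 0.19 (1.37-fold, 95% interval 1.05 to 1.78; adjusted p = 0.153). It passed in fits that called more genes, namely with limma voom (0.47, adjusted p = 0.00306; 18.9% of genes higher), with a fit on the Arid5a libraries alone (0.43, adjusted p = 0.0233; 12.2% of genes higher) and without IgG medium 2 and IgG IL-17 4 (0.48, adjusted p = 0.0292; 9.3% of genes higher). Scaling on well-expressed genes gave 0.15. In the IgG RIP it stood at 80.6, 127, 78.7 and 60.8 CPM in medium and 113, 93.9 and 61.3 CPM with IL-17, for a log2 fold of 0.09 ± 0.21 (adjusted p = 0.924). The highest medium value was that of IgG medium 2 and the lowest IL-17 value that of IgG IL-17 4. Cebpzos, the overlapping gene, had log2 folds of 0.04 ± 0.49 and 0.37 ± 0.56 in the Arid5a and IgG RIPs (adjusted p = 0.968 and 0.871).

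Cebpa was low and imprecise. It stood at 17.4, 1.12, 13.7 and 12.49 CPM in IgG medium, 14.01, 15.7, 9.94 and 15.02 in Arid5a medium, 10.1, 6.65 and 15.8 in IgG IL-17 and 9.22, 12.3, 12.1 and 7.64 in Arid5a IL-17 libraries. The value of 1.12 CPM was a single count in IgG medium 2, and all 4 groups overlapped. The log2 folds with IL-17 were -0.40 ± 0.43 in the Arid5a RIP (fold 95% interval 0.413 to 1.39) and -0.17 ± 0.48 in the IgG RIP (adjusted p = 0.595 and 0.945).

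Of the 5 members, 2 were higher with IL-17 in the Arid5a RIP, Cebpd and Cebpb, where 4.84% of the 17835 genes tested were higher and 0.813% lower. Scaled on well-expressed genes 1 member, Cebpd, was higher, against 0.65% of genes higher and 1.16% lower. In the IgG RIP 1 member, Cebpd, was higher, against 0.258% of genes higher and 0.235% lower. Averaged over both RIPs 2 members were higher, against 2.6% of genes higher and 0.662% lower, a split that became 0.992% and 1.28% after scaling on well-expressed genes. Groups did not overlap for 3 members in the Arid5a RIP (10.7% of genes were higher without overlap) and for 1 in the IgG RIP (4.27%). The median log2 fold of the members was 0.45 in the Arid5a RIP, against 0.30 for well-expressed and -0.12 for all genes, and 0.09 in the IgG RIP, against -0.04 and 0.00.

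**Figure D3:**
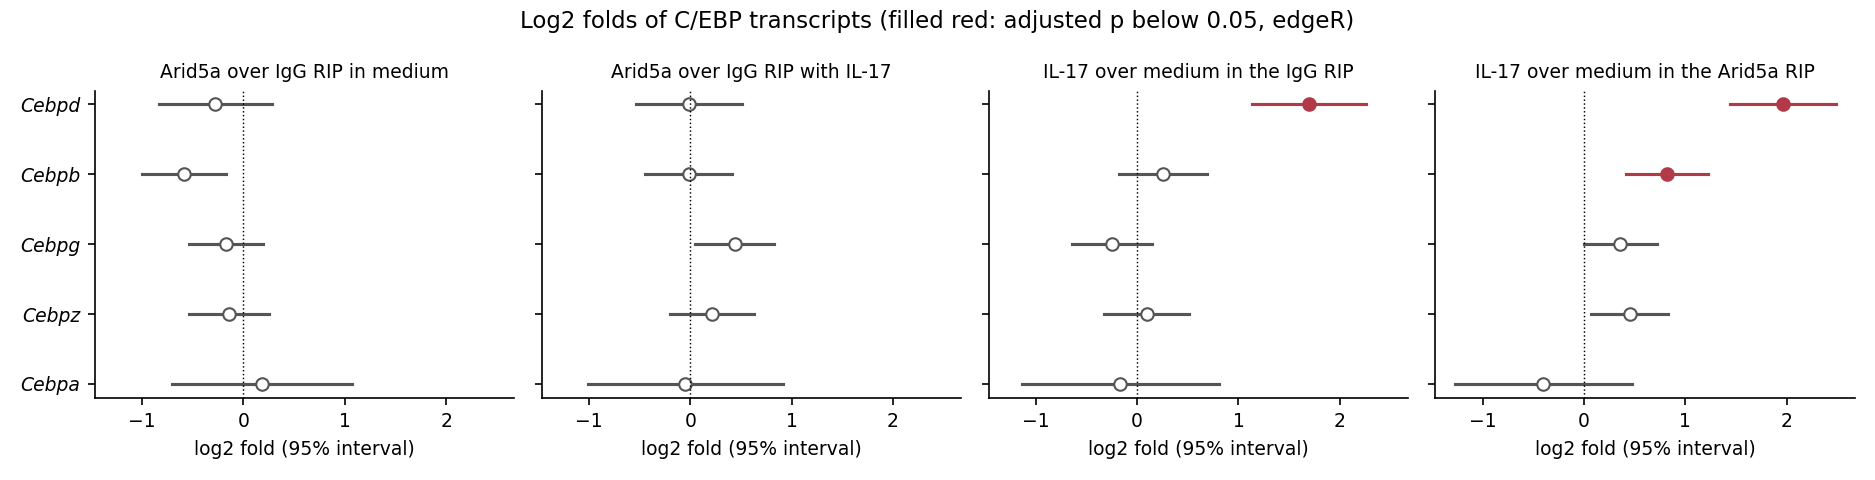
Log2 folds of the 5 members with 95% intervals in 4 comparisons, filled red where the edgeR adjusted p was below 0.05. Cebpd passed with IL-17 in both RIPs and Cebpb in the Arid5a RIP, and no member passed between the antibodies.

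Ratios of counts within a library do not depend on the scaling. For each IL-17 library the ratio of Cebpd to Cebpg counts was above that of every medium library of the same RIP, at 0.208 ± 0.034 (SD, n = 4) in medium and 0.656 ± 0.206 (n = 4) with IL-17 in the Arid5a RIP, and 0.239 ± 0.097 (n = 4) and 0.884 ± 0.323 (n = 3) in the IgG RIP. The ratio of Cebpb to Cebpd moved the other way in the Arid5a RIP, from 4.21, 3.21, 3.43 and 3.12 in medium to 1.48, 2.01, 1.83 and 0.995 with IL-17. In the IgG RIP it was 4.93, 1.71, 7.34 and 4.17 in medium and 1.74, 1.48 and 1.51 with IL-17, where IgG medium 2 made the groups overlap.

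The ratio of Cebpb to Cebpg was 0.715 ± 0.070 in medium and 0.981 ± 0.164 with IL-17 in the Arid5a RIP, with overlap. In the IgG RIP it was 0.922 ± 0.199 and 1.38 ± 0.45, without overlap but by a narrow gap. The lowest IL-17 value there was 1.116 and the highest medium value 1.108. The folds of the means were similar, 1.37 in the Arid5a and 1.49 in the IgG RIP. Measured against Cebpg, Cebpb thus separated by treatment only in the IgG RIP, whereas its CPM separated only in the Arid5a RIP. Measured against Cebpz, Cebpb overlapped between the treatments in both RIPs. Relative to Cebpb, Cebpa went from 0.301 ± 0.054 to 0.129 ± 0.003 in the Arid5a RIP without overlap and from 0.161 ± 0.112 to 0.130 ± 0.033 in the IgG RIP with overlap. These ratios are descriptions and were not tested.

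**Figure D4:**
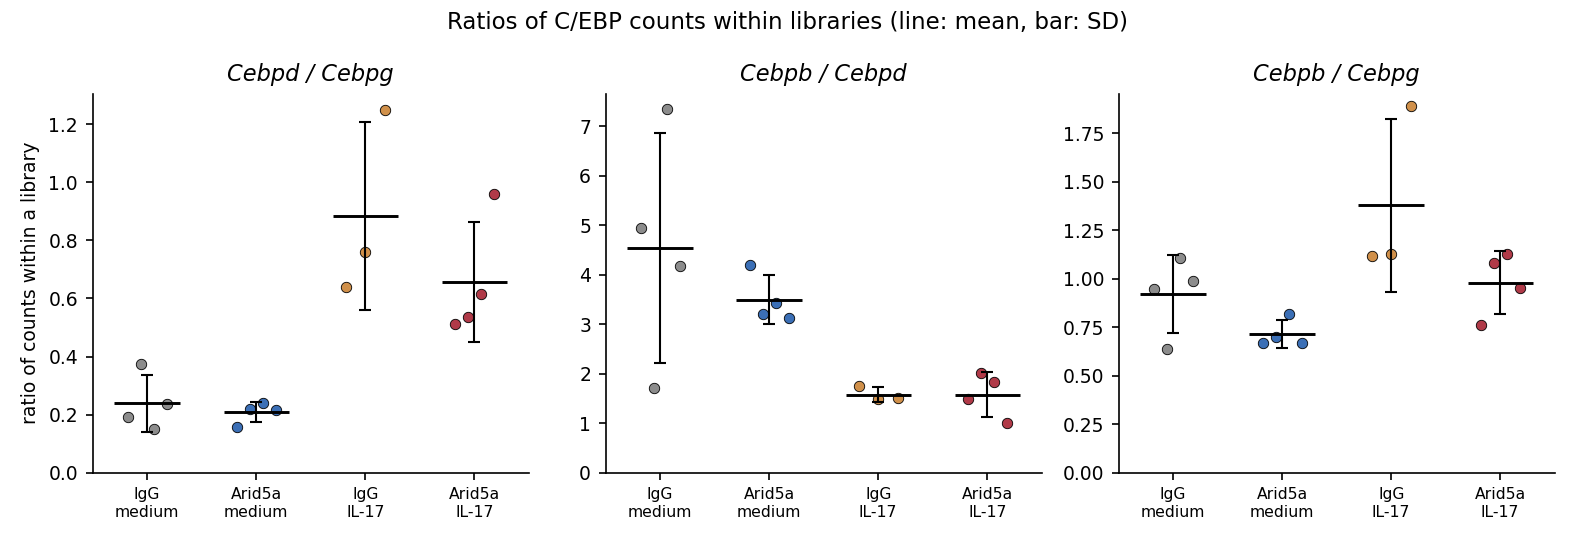
Ratios of counts within each library (linear axes from 0) for 3 pairs of members, with mean (line) and SD (bar) by group. The Cebpd to Cebpg ratio separates the treatments in both RIPs and the Cebpb to Cebpd ratio in the Arid5a RIP. The Cebpb to Cebpg ratio separates them in the IgG RIP by a narrow gap.

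The comparison of Arid5a with IgG asks which transcripts the Arid5a antibody enriched, and no C/EBP transcript passed the test in either treatment. In medium 0 of 5 members were called by edgeR, against 0.628% of genes in either direction (0.0561% higher and 0.572% lower, or 0.0449% and 0.028% with library totals). Of the members 1, Cebpb, had an unadjusted p below 0.05, as had 12.8% of genes. Its log2 fold was -0.59 ± 0.20 (0.67-fold, 95% interval 0.500 to 0.886; adjusted p = 0.188), where well-expressed genes had a median of -0.19. Its Arid5a values, 43.4 to 47.6 CPM, overlapped the IgG values through IgG medium 2 (46.0 CPM). Cebpd differed by -0.28 ± 0.28 (fold interval 0.560 to 1.22), Cebpg by -0.17 ± 0.18 (0.690 to 1.14), Cebpz by -0.14 ± 0.19 (0.690 to 1.19) and Cebpa by 0.18 ± 0.44 (0.613 to 2.10).

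With IL-17, 0 of 5 members were called between the antibodies, against 0.0673% of genes, and 1, Cebpg, had an unadjusted p below 0.05 (8.95% of genes). Cebpg stood at 82.1 ± 15.2 CPM with the Arid5a antibody and 60.5 ± 6.0 CPM with IgG, for a log2 fold of 0.44 ± 0.19 (95% interval of the fold 1.03 to 1.78; adjusted p = 0.49), where well-expressed genes had a median of 0.15. Cebpd, at 51.5 ± 4.6 and 52.2 ± 13.3 CPM, differed by -0.01 ± 0.26 (fold interval 0.691 to 1.42), and Cebpb, at 80.2 ± 18.2 and 81.6 ± 17.2 CPM, by -0.02 ± 0.21 (0.734 to 1.33). For these the interval leaves room for enrichment of up to 1.42-fold and 1.33-fold. Cebpz differed by 0.22 ± 0.20 (0.872 to 1.55) and Cebpa by -0.05 ± 0.47 (0.495 to 1.88). In both treatments DESeq2 and limma voom also called 0 of 5 members, but in medium DESeq2 gave no adjusted p for Cebpa and Cebpd. No group pair of a member was without overlap (9.05% of genes in medium and 9.69% with IL-17 were).

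The change of the antibody difference with IL-17, the interaction, was called for 0 of 5 members by edgeR and DESeq2 and for 1 by limma voom (Cebpb), against 0.976% of genes by edgeR and, by voom, 5.26% higher and 4.6% lower. Beside Cebpb and Cebpg, given above, Cebpd had 0.27 ± 0.38, Cebpz 0.36 ± 0.28 and Cebpa -0.23 ± 0.65 on the log2 scale. The median of well-expressed genes was 0.34, and only Cebpg had an unadjusted p below 0.05, as had 16.3% of genes. The Arid5a transcript itself, 15.7 ± 6.1 and 15.4 ± 4.1 CPM in the IgG and Arid5a RIPs in medium, was not called either (-0.07 ± 0.37 in medium, -0.17 ± 0.38 with IL-17). Averaged over both treatments 0 of 5 members were called, against 0.0449% of genes, with Cebpb at -0.30 ± 0.15 (adjusted p = 0.906), the single member whose unadjusted p was below 0.05 (5.44% of genes).

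**Figure D5:**
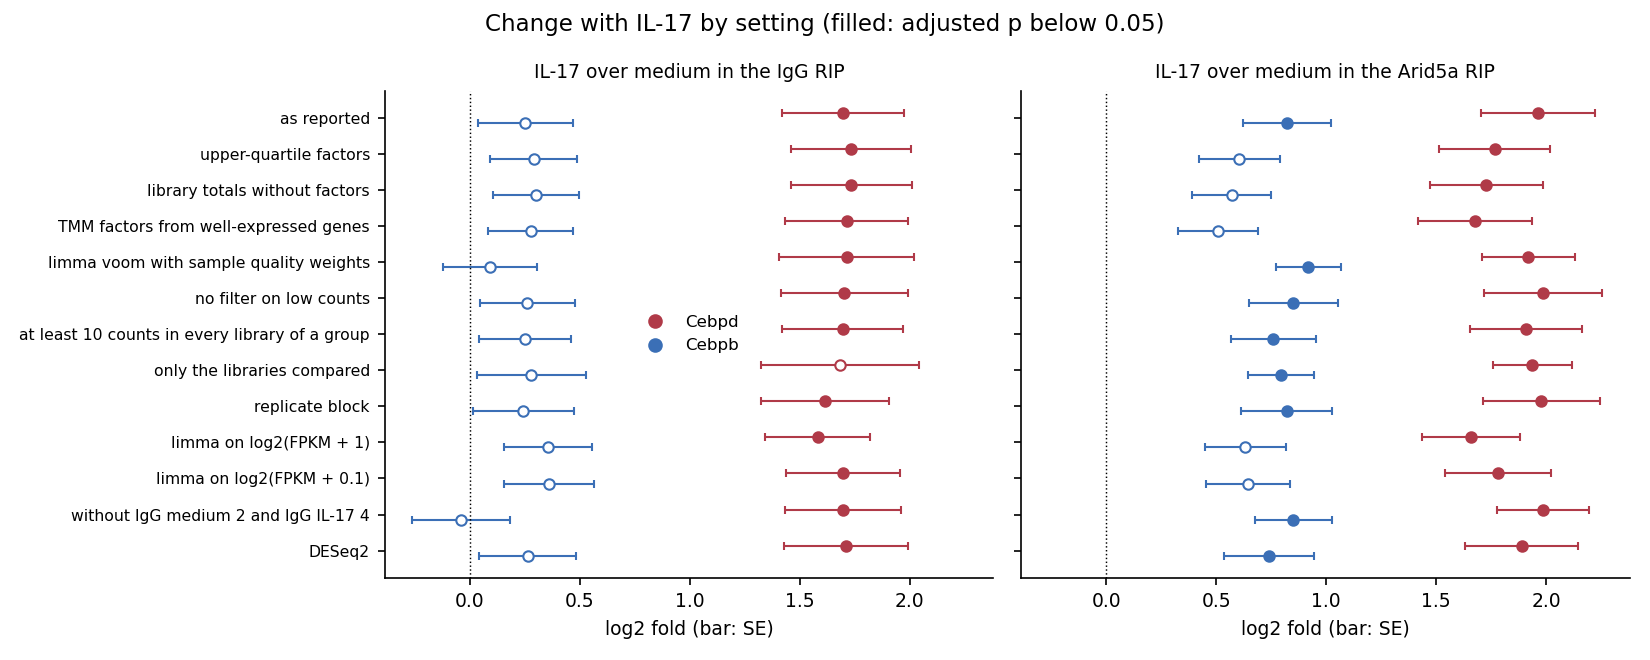
Log2 fold with IL-17 (SE bars) of Cebpd and Cebpb in each RIP as reported and under each alternative, filled where the adjusted p was below 0.05. Cebpd lies between 1.58 and 1.99 in all settings shown, and Cebpb in the Arid5a RIP lies between 0.51 and 0.92 and is filled in 8 of the 13.

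Cebpe, a further family member in the tables and a factor of granulocyte maturation, held 2 to 23 counts a library. In 0 of 15 libraries it exceeded the 95th percentile of receptor genes. It stood at 1.77, 3.37, 1.08 and 0.640 CPM in IgG medium and 3.58, 9.50, 4.82 and 5.44 in Arid5a medium libraries, then at 3.43, 4.55 and 3.35 in IgG IL-17 and 2.10, 0.911, 2.68 and 1.42 in Arid5a IL-17 libraries. The groups of the antibodies did not overlap in either treatment and lay in opposite order. The log2 folds were 1.91 ± 0.75 in medium and -1.06 ± 0.75 with IL-17 (adjusted p = 0.262 and 0.711). In medium the receptor genes too were higher with the Arid5a antibody than with IgG, and in 3 of 4 Arid5a IL-17 libraries below every IgG IL-17 library, and their part in the Cebpe values was not tested.

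Among 20 zipper partners and relatives of the C/EBP proteins, 18 were tested. With IL-17 Atf4 was higher and Fos lower in the Arid5a RIP, and Fos was lower in the IgG RIP, against 4.84% of genes higher and 0.813% lower in the former and 0.235% lower in the latter. In the Arid5a RIP DESeq2 called 0 higher and 4 lower (4.51% and 3.16% of genes), and in the IgG RIP 2 lower (1.15%). By limma voom 5 were higher and 4 lower under the Arid5a antibody (18.9% and 23.1%). Fos, a subunit of AP-1, went from 26.8 ± 9.6 to 10.1 ± 1.9 CPM in the Arid5a RIP and from 22.7 ± 14.2 to 5.67 ± 3.75 CPM in the IgG RIP. It fell by 1.69 on the log2 scale averaged over both RIPs (SE 0.31, adjusted p = 0.000899), a call kept in every alternative run. The fall was also called within each RIP (0.380-fold and 0.253-fold, adjusted p = 0.0312 and 0.0387). In the Arid5a RIP the call was lost without Arid5a medium 1, 2 or 3 or Arid5a IL-17 1, 2 or 3 (adjusted p = 0.0616 to 0.157) and on log2(FPKM + 1) and log2(FPKM + 0.1) (0.12 and 0.199). In the IgG RIP the call was kept without IgG medium 2 or 4 or Arid5a IL-17 4 and lost without any 1 of the other 12 libraries (adjusted p = 0.0525 to 0.224). It was also lost with upper-quartile factors, library totals and scaling on well-expressed genes (adjusted p = 0.0578, 0.056 and 0.0553), with limma voom (0.134), with only the IgG libraries (0.452), with the replicate number as a block (0.097) and on log2(FPKM + 1) and log2(FPKM + 0.1) (0.163 and 0.195). Atf4, the main factor of the integrated stress response, rose by 0.44 ± 0.14 in the Arid5a RIP (adjusted p = 0.0479), a call lost with DESeq2 (0.36, adjusted p = 0.0551) and under every other scaling (0.14 to 0.23), and without any 1 of the Arid5a medium libraries or Arid5a IL-17 1, 2 or 3 (0.39 to 0.50, adjusted p = 0.0618 to 0.175). Ddit3, which encodes the C/EBP inhibitor CHOP, had 0.79 ± 0.25 in the IgG RIP (adjusted p = 0.169) and 0.24 ± 0.23 in the Arid5a RIP (adjusted p = 0.544). The median of the list was 0.19 in the Arid5a and -0.05 in the IgG RIP, against 0.30 and -0.04 for well-expressed genes. Scaled on those genes it was -0.12 and -0.02.

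Of 22 IL-17 response genes with known C/EBP sites, 12 were tested. With IL-17 8 were higher in the Arid5a RIP and 7 in the IgG RIP. Of these 12, 0 were lower in either (DESeq2 called 1 lower in each, against 3.16% and 1.15% of genes). Over all genes 4.84% and 0.258% were higher. Medians were 2.34 and 1.399 on the log2 scale. Under each scaling of the edgeR fit 8 were higher in the Arid5a and 6 or 7 in the IgG RIP. The list was chosen as IL-17 responders, and genes low in medium could pass the filter through their IL-17 libraries. Cxcl5, for example, had means of 1.09 and 1.11 CPM in medium and 47.2 and 75.6 CPM with IL-17 (IgG and Arid5a RIPs). These counts are therefore in part set by the choice of genes. The 4 genes of the list with the smallest p, taken over both RIPs, all encode chemokines. They were Cxcl5 (6.05 ± 0.39 and 5.24 ± 0.41), which went from 1.11 ± 0.13 to 75.6 ± 14.4 CPM under the Arid5a antibody, Cxcl1 (4.36 ± 0.28 and 3.89 ± 0.28), Ccl2 (3.17 ± 0.18 and 2.47 ± 0.19) and Ccl7 (2.85 ± 0.18 and 1.32 ± 0.19). Ccl7 was lower with the Arid5a antibody than with IgG in medium (-0.94 ± 0.19, adjusted p = 0.0171), a call lost under other scalings (-0.79 to -0.76) and without IgG medium 2 or 3 or Arid5a medium 2, 3 or 4 (adjusted p = 0.0605 to 0.117). Nfkbiz, which encodes IκBζ, rose from 28.8 ± 7.4 to 111 ± 12.7 CPM in the Arid5a RIP and from 33.0 ± 4.8 to 89.7 ± 17.1 CPM in the IgG RIP, with log2 folds of 1.94 ± 0.20 and 1.48 ± 0.21. Lcn2 and Il6, further C/EBP targets, held at most 7 and 8 counts a library and were not tested.

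Of 25 regulators of C/EBP mRNA, protein or activity, 23 were tested, and 3 were higher with IL-17 in the Arid5a RIP and 1 in the IgG RIP, against 4.84% and 0.258% of genes. Zc3h12a, which encodes the mRNA-degrading enzyme Regnase-1, was higher in both (2.79 ± 0.26 and 1.75 ± 0.27). This gene is also counted among the IL-17 response genes above. Elavl1, for the mRNA-stabilising protein HuR (0.71 ± 0.18, adjusted p = 0.0134), and Stat3 (0.66 ± 0.19, adjusted p = 0.0314) were higher in the Arid5a RIP, and neither was called with upper-quartile factors, library totals or factors from well-expressed genes (0.35 to 0.48). Elavl1 was also not called without Arid5a medium 1 or Arid5a IL-17 1 or 2 (adjusted p = 0.0502 to 0.0872), nor Stat3 without any 1 of the Arid5a medium libraries or Arid5a IL-17 1, 2 or 3 (0.0528 to 0.143). Celf1, for a protein known to bind C/EBP mRNAs, was lower with the Arid5a antibody than with IgG in medium, at 123 ± 11.3 against 191 ± 20.8 CPM (log2 fold -0.62 ± 0.15, adjusted p = 0.047). This call was lost under the same scalings (-0.47 to -0.44), and it was kept without IgG medium 1, IgG IL-17 3 or 4 or Arid5a IL-17 4 and lost without any 1 of the other 11 libraries (adjusted p = 0.06 to 0.274).

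Of 17 adipogenic and fat-cell targets 15 were tested, and edgeR called 0 within either RIP. In the Arid5a and IgG RIPs 4 and 3 had an unadjusted p below 0.05, for which the share of all genes is not given here. DESeq2 called 1 lower in each RIP, against 3.16% of genes in the Arid5a and 1.15% in the IgG RIP. Limma voom called 8 of the 15 in the Arid5a RIP, 2 of them higher. That fit called 18.9% of all genes higher and 23.1% lower. Pparg, the master factor of fat-cell differentiation, fell by 0.47 on the log2 scale averaged over both RIPs (SE 0.13, adjusted p = 0.0384). The call was kept without IgG medium 2 or 4, Arid5a medium 2 or Arid5a IL-17 4 and lost without any 1 of the other 11 libraries (adjusted p = 0.0605 to 0.104). It stood at 83.0 ± 18.7 and 51.5 ± 1.3 CPM in medium and IL-17 libraries of the IgG RIP and at 74.2 ± 11.1 and 62.7 ± 5.0 CPM in the Arid5a RIP. List medians were -0.70 in the Arid5a and -0.23 in the IgG RIP, against -0.12 and 0.00 over all genes. The haematopoietic and the epithelial or endothelial markers, also low, had medians of -0.71 and -1.03 in the Arid5a RIP. In the IgG RIP these were -1.08 and -0.32. The part of low counts in these medians was not tested.

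The 19 tested integrated stress response genes, targets of ATF4, CHOP and C/EBPγ, had 0 calls with IL-17 in either RIP by edgeR. In the Arid5a and IgG RIPs 4 and 1 had an unadjusted p below 0.05, again without the share of all genes. Limma voom called 8 higher in the Arid5a RIP, against 18.9% of all genes, and DESeq2 1 lower in the IgG RIP, against 1.15%. Between the antibodies edgeR called 0 of this list in either treatment. DESeq2 called 1 lower in medium, against 1.83% of genes, and limma voom 1 higher with IL-17, against 1.52%. By edgeR Mthfd2, a mitochondrial folate enzyme gene, had -0.79 ± 0.20 between Arid5a and IgG RIP in medium (adjusted p = 0.0657). Psat1, of serine synthesis, had 0.45 ± 0.15 with IL-17 in the Arid5a RIP (adjusted p = 0.0611). All 28 ribosome biogenesis factors, chosen as relatives of Cebpz in function, were tested. With IL-17 14 were higher in the Arid5a RIP, against 4.84% of genes, and 0 in the IgG RIP, against 0.258%. Of the list 8 had an unadjusted p below 0.05 in the IgG RIP, for which the share of all genes is not given here. DESeq2 called 4 of the 28 higher in that RIP, against 0.645% of genes. The 14 became 8 with upper-quartile factors, 5 with library totals and 2 after scaling on well-expressed genes (0.65% of genes). The list median was 0.59 in the Arid5a and 0.24 in the IgG RIP, where well-expressed genes had 0.30 and -0.04. Scaled on well-expressed genes it was 0.29 and 0.27. Averaged over both RIPs 13 were higher, against 2.6% of genes. Under each other scaling of the edgeR fit this was 9, against 0.992% to 1.46%. Limma voom called 21 higher in the Arid5a RIP, against 18.9% of genes. Whether the list differed between the RIPs was not tested. Gtpbp4 (0.95 ± 0.16 and 0.56 ± 0.18 in the Arid5a and IgG RIPs), Nop14 (0.89 ± 0.15 and 0.12 ± 0.17) and Ncl (0.58 ± 0.11 and 0.36 ± 0.12) led this list. Noc3l, of the Noc family to which Cebpz is related, had 0.85 ± 0.17 (adjusted p = 0.00196) and 0.34 ± 0.18, Noc2l 0.38 ± 0.16 (adjusted p = 0.147) and Noc4l 0.12 ± 0.48. Scaled on well-expressed genes, Ncl and Noc3l were not called (0.29 and 0.54, adjusted p = 0.0981 and 0.0513). Nsa2, of large-subunit assembly, was higher with the Arid5a antibody than with IgG, by 0.89 ± 0.12 averaged over both treatments (adjusted p = 8.73e-05), a call kept in every alternative run. Within treatments the difference was 0.71 ± 0.16 in medium and 1.06 ± 0.17 with IL-17 (adjusted p = 0.0279 and 0.00697). The call in medium was lost without IgG medium 2, 3 or 4 or any 1 of the Arid5a medium libraries (adjusted p = 0.0598 to 0.117), and both were lost after scaling on well-expressed genes (0.0592 and 0.0697).

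Likeness to each member was described by the Pearson r of log2 CPM over the 15 libraries, which share the treatment groups, among 14658 genes averaging 2 or more on that scale. Cebpd was most like Ccl2 (0.959), Fas (0.956) and Cxcl1 (0.939), and Cebpb most like Hmox1 (0.896), Ccn2 (0.894) and Atp2b1 (0.893). Cebpg was most like Polr2b (0.918), Akr1a1 (0.897) and Rbms1 (0.892), and Cebpz most like Ptpn12 (0.914), Arid4b (0.861) and Agap1 (0.860). Cebpa was most like Cyb561d2 (0.959), Zfp952 (0.945) and Faap24 (0.943). Among the members themselves r was highest for Cebpb and Cebpd (0.596) and lowest for Cebpa and Cebpz (-0.62). IgG medium 2, the shallowest library, held both the lowest Cebpa value (1.12 CPM, a single count) and the highest Cebpz value (127 CPM). The part of this library in the r values of Cebpa was not tested. Cebpa and Cebpg, both on chromosome 7 with Gm35611 between them, had an r of -0.06.

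The tested neighbours of the members were not called with IL-17. A530013C23Rik, a noncoding gene 327 bases beyond Cebpb, had log2 folds of -1.49 ± 0.80 and 0.41 ± 0.95 with IL-17 in the Arid5a and IgG RIPs (adjusted p = 0.262 and 0.93). Pepd, 1714 bases from Cebpg, had 0.31 ± 0.27 and 0.38 ± 0.30 (adjusted p = 0.493 and 0.696). Ndufaf7, 36 bases from Cebpz, had 0.22 ± 0.46 and -0.17 ± 0.51 (adjusted p = 0.801 and 0.948).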

How the data were processed

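The authors deposited expected counts and FPKM for 25239 genes in 15 RIP libraries. The submitters' processing notes name the mm10 build, the aligner STAR (2.7.9), RSEM (1.3.1) and, without a role, R (4.3.0) and DESeq2 (1.36.0). The annotation is not given in the sources used here. Between 2.66% and 10.3% of the values in a library's deposited count column were not whole, so these were taken as RSEM's expected counts before any normalisation, and FPKM as scaled by the authors for length and total.

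Counts were rounded, and the 17835 genes that passed filterByExpr were tested with edgeR 4.0.16 (R 4.3.3). They were scaled with TMM factors and fitted by robust quasi-likelihood to 4 group means over all 15 libraries. Within each of 7 comparisons p-values were adjusted by Benjamini-Hochberg over all genes tested, and genes below 0.05 are called. The common biological coefficient of variation was 0.341. Replicates were compared, and none were identical. Symbols were matched to RefSeq of GRCm38.p6 (25041 of 25239). Alternatives were other scalings, DESeq2 1.42.0, limma 3.58.1 (voom, and on FPKM), other filters, only the libraries compared, a replicate block and libraries left out. The procedure was tested on simulated data.

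The members, lists, alternatives and comparisons were chosen with earlier results of these data known. Genes named were the 5 members, from each list at most 4 genes that were called, taken in order of p (at most 2 if none was called), the 3 genes most like each member, Arid5a, Cebpe, Ddit3, Lcn2, Nfkbiz and Il6, and genes overlapping or next to a member. Noc2l, Noc3l and Noc4l were named outside this rule, after their values were seen.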

Additional observations from a re-analysis of the deposited data

How the results depend on the processing

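The rise of Cebpd with IL-17 kept its direction and call in the Arid5a RIP and averaged over both RIPs under every alternative run (log2 folds 1.66 to 2.04 and 1.62 to 1.94). Leaving out 1 library gave 1.89 to 2.04 in the Arid5a and 1.52 to 1.91 in the IgG RIP, all called. The call in the IgG RIP was lost with only the libraries compared (1.68).

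Cebpb in the Arid5a RIP lost its call with upper-quartile factors (0.61), library totals (0.57), factors from well-expressed genes (0.51), log2(FPKM + 1) (0.63) and log2(FPKM + 0.1) (0.64), and stood at 0.73 to 0.94 with 1 library left out. Averaged over both RIPs it lost the call in the same settings (0.45, 0.43, 0.39, 0.49 and 0.50), with the replicate block (0.53, adjusted p = 0.0533) and without IgG medium 2 and IgG IL-17 4 (0.41), and stood at 0.49 to 0.63 with 1 library left out. Limma voom added calls for Cebpb in the interaction (0.83), for Cebpg in the Arid5a RIP (0.44) and for Cebpz in the Arid5a RIP and on average (0.47 and 0.43). Cebpz was also called in the Arid5a RIP with only the libraries compared (0.43) and, without those 2 IgG libraries, there and on average (0.48 and 0.49).

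Changes of sign all concerned values that no fit called. With voom, Cebpa turned to -0.018 (medium), 0.25 (with IL-17) and 0.27 (interaction), Cebpb and Cebpd to 0.20 and 0.12 (antibodies with IL-17), Cebpd to 0.022 (antibodies averaged) and Cebpz to 0.014 (medium). Without the 2 IgG libraries these were -0.10, 0.32, 0.41, 0.19, 0.23, 0.085 and 0.062, with -0.041 for Cebpb with IL-17 in the IgG RIP and -0.022 for the Cebpz interaction. Between the antibodies with IL-17, no filter gave 0.023 for Cebpb and 0.024 for Cebpd, and the replicate block 0.012 and 0.076. With upper-quartile factors, library totals and factors from well-expressed genes, Cebpz in medium was 0.018, 0.050 and 0.045 and Cebpg averaged over RIPs -0.027, -0.039 and -0.083. With the last of these scalings and library totals, the Cebpd interaction was -0.038 and -0.0059 and Cebpg in medium 0.0046 and 0.0062. On log2(FPKM + 1) and log2(FPKM + 0.1), Cebpa with IL-17 in the IgG RIP was 0.19 and 0.41, Cebpg averaged -0.030 and -0.033 and Cebpz in medium 0.033 and 0.036. The cause was not tested.

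With 1 library left out, values that changed sign ranged, between the antibodies in medium, from -0.087 to 0.45 for Cebpa and -0.28 to 0.071 for Cebpz. With IL-17 they ranged from -0.30 to 0.30 for Cebpa, -0.11 to 0.17 for Cebpb and -0.13 to 0.20 for Cebpd. Averaged over treatments they ranged from -0.064 to 0.23 for Cebpa and -0.066 to 0.16 for Cebpz, in the interaction from -0.50 to 0.13 for Cebpa, and with IL-17 in the IgG RIP from -0.49 to 0.12 for Cebpa and -0.12 to 0.33 for Cebpz.

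Counts of called genes ranged from 0 to 350 around 112 (antibodies in medium), 0 to 571 around 12 (antibodies with IL-17), 0 to 1758 around 174 (interaction), 75 to 7497 around 1008 (IL-17, Arid5a RIP), 16 to 320 around 88 (IL-17, IgG RIP), 182 to 1368 around 582 (IL-17 averaged) and 4 to 71 around 8 (antibodies averaged). Deviations from the group means of same-numbered libraries correlated at -0.23 to 0.22, and 2 of 15 libraries correlated best with their own number. With 3 or 4 libraries in a group, this description cannot tell whether the replicate numbers pair the libraries. Fits on only the libraries compared were not run for the interaction and the averages. DESeq2 gave no adjusted p between the antibodies for Cebpa and Cebpd in medium or for Cebpa averaged over treatments. Low counts limit Cebpa and Cebpe most.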
